A study of Homo sapiens with 4 samples.

Results

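Integrins, laminins and collagens were examined in human prostate cancer cells as 49 genes chosen by name, out of 60880 genes counted. They comprised 21 integrin subunits, 10 laminin chains and 18 collagen chains, and each of the 49 symbols matched 1 Ensembl identifier. RNA-Seq counts came from LNCaP95, a subline of the LNCaP prostate cancer cell line that grows without androgen, and from LN95(KO), its derivative with a CRISPR knockout of UGT2B17, an enzyme that inactivates androgens. Each group held 2 libraries, labelled replicates 1 and 2 for LNCaP95 (genotype WT) and 3 and 4 for LN95(KO). All cells were kept in RPMI1640 with charcoal-stripped, and thus androgen-poor, serum and received no other treatment. The sample labels give LN95 as the line of all 4 libraries, whereas the series description names LNCaP for the knockout. How many knockout clones there were, and whether replicates were separate cultures, is not given in the sources used here, so p-values cover only the spread between these libraries, which may be technical.

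Integrins are receptors made of an alpha and a beta subunit that tie the cell to the extracellular matrix, and which alpha subunit is paired with which beta decides the ligand. Laminins are trimers of an alpha, a beta and a gamma chain and, with type IV collagen, form the basement membrane that underlies the prostatic epithelium. Many of the other collagens build fibrils, beaded filaments or anchoring structures in the stroma, and normal prostate epithelium rests on laminin through the integrin alpha6 beta4 of hemidesmosomes.

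Gene reads per library ranged from 17330338 to 18813193. UGT2B17 itself had 2788 and 2748 reads in LNCaP95 against 21 and 20 in LN95(KO). The targeted transcript was thus low in both libraries labelled as knockout. The 9 luminal prostate markers looked up were all above 1 CPM (reads of a gene relative to all gene reads of its library, scaled with TMM factors), with a summed level of 3026 and 3032 CPM in LNCaP95 and 3821 and 3652 CPM in LN95(KO). Leukocyte markers summed to 0.108 to 0.339 CPM. The 4 basal epithelial markers summed to 0.162 and 0.218 CPM in LNCaP95 and 1.13 and 1.53 CPM in LN95(KO), where KRT14 gave most of the reads (17 and 20), and TP63 had 2 reads in all. Fibroblast markers summed to 2.07 to 2.60 CPM, with 2 of 6 at 1 CPM or more, LUM with 24 and 19 against 0 and 0 reads (called lower) and PDGFRB with 22 and 18 against 44 and 44 (called higher), and DCN and PDGFRA at 0 reads in all 4 libraries. The sum of 4 endothelial markers was 0.433 and 0.491 CPM against 2.76 and 3.17 CPM, with VWF (called higher) giving all reads but 1 and CDH5 and TEK at 0. PECAM1, also listed as endothelial, was not matched to an identifier. The part of these markers in the results was not tested. These are bulk libraries, in which fewer cells carrying a transcript and less of it per cell cannot be told apart.

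Of the 49 genes, 34 were expressed at 1 CPM or more in both libraries of at least 1 group, and 15 were not. The 34 were 14 integrins, 8 laminins and 12 collagens. Of these, 28 reached 1 CPM in both groups, 5 (ITGA8, ITGA10, ITGB2, LAMA1 and COL4A6) in LN95(KO) only, and COL5A1 in LNCaP95 only. ITGB2 lay just inside that line, with 1.13 CPM in its lower LN95(KO) library, and ITGA1 just outside it, with 0.79 CPM in its lower LN95(KO) library.

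In edgeR's quasi-likelihood test, 36 of the 49 had enough reads to be tested. To be called, a gene needed an adjusted p below 0.05 and a difference of more than 2-fold between LN95(KO) and LNCaP95. Calls were made for 13 of the 36, 9 higher and 4 lower, where 18% of all 15626 genes tested were called (15.1% with DESeq2, which called the same number of the 36), 8.86% higher and 9.13% lower. The 9 were LAMA1, COL4A6, ITGA8, LAMA3, LAMB3, ITGA10, COL4A5, COL4A2 and COL9A3. The 4 were COL5A1, ITGB4, ITGA3 and COL6A2. Another 11 passed the adjusted p in edgeR but not the fold, 5 higher and 6 lower, so 24 of the 36 passed it at any fold, against 59.8% of all genes, and 12 did not. The median log2 fold change of the 36 was 0.14, against -0.01 over all genes tested. Genes such as LAMA1, ITGA8 and ITGA10 entered the test through LN95(KO) alone, so these counts describe the genes tested and not the family as a whole. In 30 of the 36, or 83.3%, no library of 1 group lay within the range of the other, close to the 79.8% of all genes tested.

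**Figure D1:**
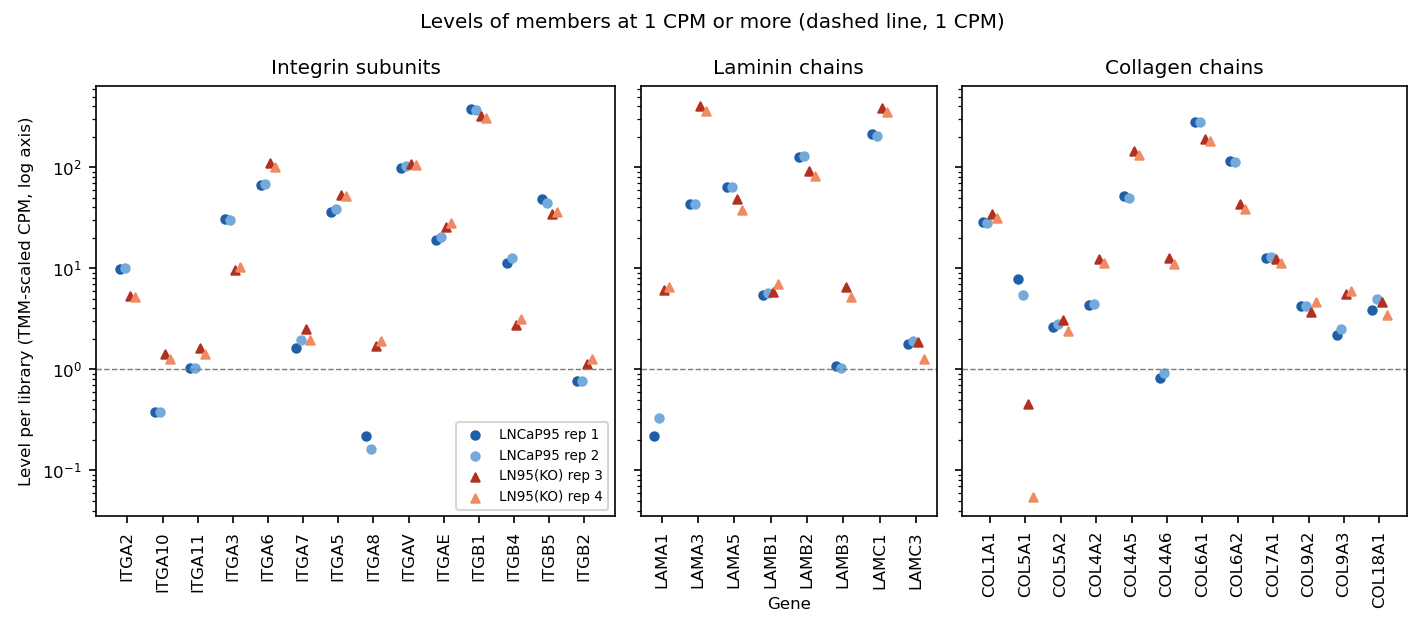
Levels of the 34 genes at 1 CPM or more, as TMM-scaled CPM on a log axis, with 1 point per library (blue circles, LNCaP95 replicates 1 and 2; red triangles, LN95(KO) replicates 3 and 4) and a dashed line at 1 CPM. ITGB1, COL6A1 and LAMC1 are the highest in LNCaP95, and LAMA3 joins them in LN95(KO), at 408 and 363 CPM.

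**Figure D2:**
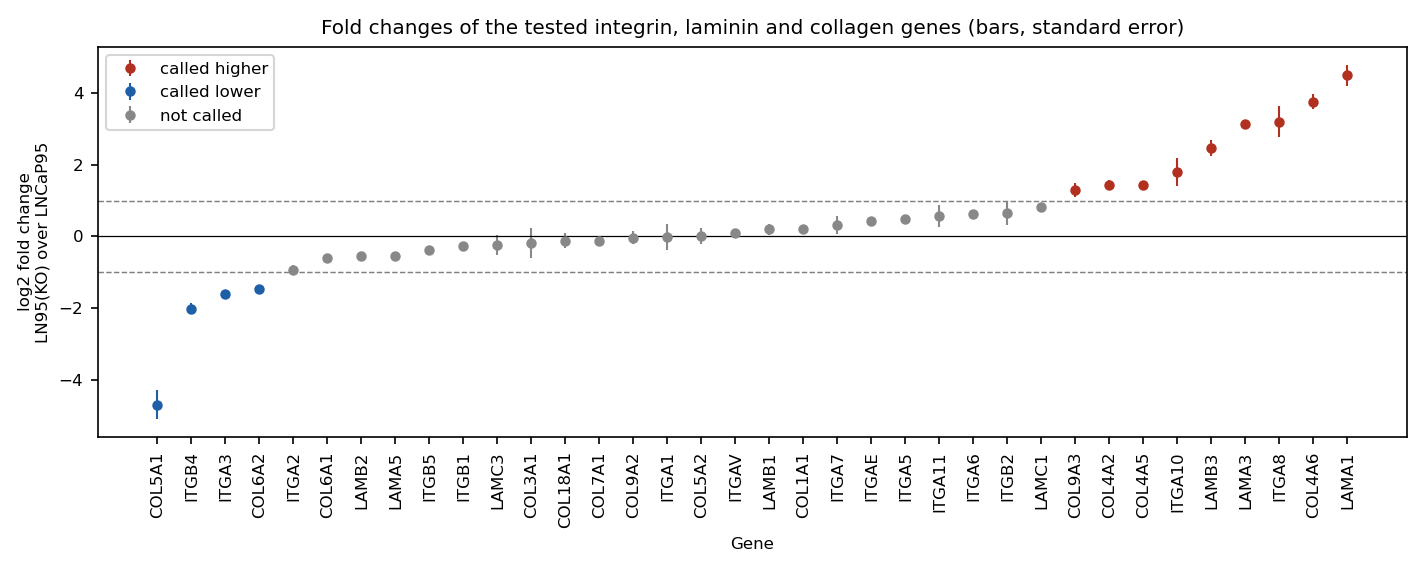
log2 fold changes, LN95(KO) over LNCaP95, of the 36 genes tested, ordered by value, with bars for the standard error and dashed lines at a 2-fold change. The 9 genes called higher reach from COL9A3 at 1.30 to LAMA1 at 4.50, and the 4 called lower from COL6A2 at -1.46 to COL5A1 at -4.70.

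Among laminin receptors, the integrin alpha subunits ITGA3 and ITGA6 went in opposite directions. ITGA3 (chromosome 17, 48133332 to 48167845; GRCh37 throughout), which pairs with beta1 and binds laminins rich in the alpha3 and alpha5 chains, had 563 and 556 reads in LNCaP95 and 171 and 190 in LN95(KO). Both LN95(KO) libraries lay far below both LNCaP95 libraries. ITGA3 fell from 30.4 ± 0.104 to 10.0 ± 0.530 CPM (mean and SD of 2 libraries a group, here and below), and its log2 ratio of LN95(KO) to LNCaP95 was -1.60, with a standard error (SE) of 0.09 (edgeR adjusted p 1.58e-10). ITGA6, the subunit shared by the beta1 and beta4 laminin receptors, had 1245 and 1258 reads against 1939 and 1856, higher in both LN95(KO) libraries. Its log2 difference of 0.63 (SE 0.06, edgeR adjusted p 4.81e-08) was short of 2-fold. ITGA7, the laminin receptor subunit best known from muscle, had 30 and 36 against 44 and 36 reads and no difference beyond the replicate error (log2 0.31, SE 0.25).

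The beta subunit of hemidesmosomes fell, whereas the common beta1 subunit was lower by less than 2-fold. ITGB4 (chromosome 17, 73717408 to 73753899), which pairs with alpha6, had 209 and 230 reads in LNCaP95 and 49 and 57 in LN95(KO). The groups stood well apart. It fell from 11.9 ± 0.871 to 2.94 ± 0.251 CPM, a log2 ratio of -2.02 (SE 0.15, edgeR adjusted p 5.45e-09), while its partner ITGA6 was higher. ITGB1, the partner of most alpha subunits, had 7031 and 6809 reads against 5678 and 5648, a log2 difference of -0.26 (SE 0.05, edgeR adjusted p 0.000152). Per length (CPM per kb of the canonical transcript), ITGB1 stood at 100.6 ± 1.74 in LNCaP95 and 84.2 ± 2.13 in LN95(KO), and ITGB4 at 2.02 ± 0.148 and 0.499 ± 0.0425. ITGB1 was the highest of the 49 genes with that length but not with the union of its exons, where it stood at 25.8 and 21.6 CPM per kb against 50.8 and 33.5 for COL6A1. Per union of exons, LAMC1 (43.5) was the highest in LN95(KO), where LAMA3 (26.6) also stood above ITGB1.

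Collagen-binding alpha subunits were low. ITGA2, the alpha subunit of the main epithelial collagen receptor, had 183 and 185 reads against 95 and 94, so that the LN95(KO) libraries were both lower. At -0.93 on the log2 scale (SE 0.14, edgeR adjusted p 1.81e-05) it was just short of a 2-fold change and was not called. ITGA10, which binds type II collagen in cartilage, was called higher on few reads, 7 and 7 against 25 and 23 (log2 fold change 1.79, SE 0.39, edgeR adjusted p 0.000764). ITGA11, a receptor for fibrillar collagen, had 19 and 19 against 29 and 26 reads and did not pass (log2 0.56, SE 0.30). ITGA1 had 14 to 18 reads in every library, and 13.2% of its exon bases are shared with other annotated genes.

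Receptors of the RGD type, which bind fibronectin and vitronectin, differed by less than 2-fold apart from ITGA8. ITGAV, the hub of this group, had 1820 and 1871 reads against 1909 and 1914, a log2 difference of 0.08 (SE 0.05, edgeR adjusted p 0.189). ITGA5, the fibronectin receptor subunit, had 667 and 704 against 945 and 942, a log2 difference of 0.49 (SE 0.07, edgeR adjusted p 7.43e-06). ITGB5, a partner of alphaV, had 889 and 805 against 616 and 656, a log2 difference of -0.38 (SE 0.07, edgeR adjusted p 0.000211). The LN95(KO) libraries were thus above for ITGA5 and below for ITGB5, with no overlap, at less than 2-fold. ITGA8 (chromosome 10, 15555953 to 15761921), which pairs with beta1 and binds nephronectin, had 4 and 3 reads in LNCaP95 and 30 and 35 in LN95(KO). It rose to 1.80 ± 0.157 CPM from 0.190 ± 0.0374, a log2 ratio of 3.20 (SE 0.43, edgeR adjusted p 5.09e-06), and remained among the lowest of the expressed subunits. The alphaV partners ITGB3, ITGB6 and ITGB8 had at most 9 reads in any library.

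Integrins of leukocytes were near the floor, apart from ITGAE. ITGAE, the alphaE subunit that binds E-cadherin, had 355 and 371 reads in LNCaP95 and 455 and 509 in LN95(KO). Both LN95(KO) libraries were higher, with a log2 difference of 0.44 (SE 0.09, edgeR adjusted p 0.000318). Its partner ITGB7 had 1 to 5 reads per library, with 42.3% of its exon bases shared with ZNF740 on the opposite strand. ITGB2 had 14 and 14 against 20 and 23 reads and did not pass. ITGA4 had 1 read in all, in LN95(KO) replicate 3, and ITGA9 had 1 to 8 reads per library. Over all integrins, 15 of 21 were tested and 4 of the 15 (26.7%, against 18% of all genes tested) were called, 2 higher and 2 lower.

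Of the laminin chains, LAMA1, LAMA3 and LAMB3 rose. LAMA3 (chromosome 18, 21269417 to 21536186), the alpha chain of the laminin that anchors epithelia, had 801 and 798 reads in LNCaP95 and 7227 and 6628 in LN95(KO). The lower LN95(KO) library, at 363 CPM, stood far above the higher LNCaP95 library, at 43.5. LAMA3 rose from 43.4 ± 0.120 to 385 ± 31.9 CPM, a log2 ratio of 3.15 (SE 0.06, edgeR adjusted p 6.55e-17), which is 8.87-fold. LAMB3 (chromosome 1, 209788215 to 209825770), the beta chain found with alpha3 in the same trimer, had 20 and 19 reads against 115 and 96. It rose from 1.06 ± 0.0327 to 5.87 ± 0.873 CPM, a log2 ratio of 2.46 (SE 0.23, edgeR adjusted p 6.43e-08). LAMA1 (chromosome 18, 6941741 to 7117796), the alpha chain of embryonic basement membranes, had 4 and 6 reads against 107 and 120 and was at 6.30 ± 0.375 CPM in LN95(KO). Its log2 fold change of 4.50 (SE 0.29, edgeR adjusted p 5.3e-10) was the largest rise among the 49 genes; 11.1% of its exon bases are shared with annotated antisense RNAs, and the counting did not use strand.

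LAMA5 and LAMB2 were lower in LN95(KO), and LAMC1 higher, each at less than 2-fold. LAMA5, the broad alpha chain of adult basement membranes, had 1176 and 1158 reads against 868 and 696 (log2 fold change -0.54, SE 0.09, edgeR adjusted p 0.000181). LAMB2, a beta chain of adult basement membranes, had 2357 and 2379 reads against 1633 and 1512 (log2 -0.56, SE 0.06, edgeR adjusted p 2.74e-07). LAMC1, the gamma chain common to most laminins, had 3909 and 3775 reads against 6766 and 6448. Both LN95(KO) libraries were higher, at 367 ± 20.4 against 209 ± 4.02 CPM, and the log2 difference of 0.82 (SE 0.05, edgeR adjusted p 3.21e-10) was also short of 2-fold. LAMB1 and LAMC3 did not differ beyond the replicate error (log2 differences of 0.20 and -0.25). LAMA2 and LAMA4, typical of muscle and vessels, had at most 3 reads in a library. In all, 8 of the 10 laminin chains were tested, and 3 of the 8 (37.5%, against 18% of all genes tested) were called, all higher.

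The stretches before the LAMA3 and LAMB3 start sites are shown because these chains of 1 trimer were called in the same direction. They are the 250 bases upstream of the canonical transcript on GRCh37, chr18:21269167-21269416 on the plus strand and chr1:209825771-209826020 on the minus strand, each 5′ to 3′. Both strands were searched for the CCAAT box (CCAAT), the GC box (GGGCGG), the TATA box (TATAAA), the AP-1 site (TGANTCA) and the androgen receptor half-site (AGAACA), and matches are in capitals. No 2 matches overlapped in the sequences shown.
LAMA3: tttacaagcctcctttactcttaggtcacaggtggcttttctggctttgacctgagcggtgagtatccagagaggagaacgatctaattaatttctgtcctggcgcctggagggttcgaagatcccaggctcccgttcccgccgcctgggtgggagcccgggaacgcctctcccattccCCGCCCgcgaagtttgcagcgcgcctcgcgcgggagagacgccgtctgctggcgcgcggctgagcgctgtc
LAMB3: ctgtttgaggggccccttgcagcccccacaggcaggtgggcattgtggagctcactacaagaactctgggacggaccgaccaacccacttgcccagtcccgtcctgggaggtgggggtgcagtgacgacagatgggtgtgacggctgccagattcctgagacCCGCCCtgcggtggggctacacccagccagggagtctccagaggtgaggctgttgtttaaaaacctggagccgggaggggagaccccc

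Each of these windows held 1 GC box, a motif found in 59.1% of 19867 protein-coding windows of the same length and in 33 of the 49 members. Androgen receptor half-sites were found before ITGA10, ITGB6, COL5A1 and COL5A2, that is 4 of the 49, against 8.94% of all windows. The AP-1 letters occurred before ITGB4 and COL6A1, against 4.7% of all windows. The LAMA3 window lies before its long transcript. The annotation also starts shorter coding transcripts of LAMA3 inside the gene, and whole-gene counts do not tell these apart. The window shown may thus not lie before the transcript that was higher.

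Of the 4 listed chains of type IV collagen, the network of basement membranes, 3 could be tested. Each of the 3 was called higher in LN95(KO), against 8.86% of all genes tested. COL4A5 (chromosome X, 107683068 to 107940775) had 963 and 905 reads in LNCaP95 and 2591 and 2392 in LN95(KO). It rose from 50.7 ± 1.95 to 138 ± 10.8 CPM, a log2 ratio of 1.45 (SE 0.06, edgeR adjusted p 2.9e-12). COL4A6 (chromosome X, 107398837 to 107682727), which assembles with alpha5 chains, had 15 and 17 reads against 225 and 203. It went from 0.869 ± 0.0815 to 11.9 ± 1.12 CPM, a log2 ratio of 3.76 (SE 0.20, edgeR adjusted p 3.56e-11). COL4A2 (chromosome 13, 110958159 to 111165556) had 80 and 82 reads against 217 and 208, a log2 ratio of 1.42 (SE 0.14, edgeR adjusted p 1.19e-07). COL4A1, whose chain joins that of COL4A2 in the common type IV trimer, had 2 and 4 reads against 6 and 4 and was not tested. COL4A1 thus had far fewer reads than COL4A2 in every library.

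The 4 genes lie in head-to-head pairs, each pair transcribed away from a short shared region, and these regions are shown because 1 pair rose together and in the other only COL4A2 had reads to speak of. The outermost annotated starts of COL4A6 and COL4A5 are 340 bases apart, and the first sequence is the 250 bases before COL4A5 (chrX:107682818-107683067, GRCh37, plus strand). The canonical COL4A6 transcript starts further inside that gene, 1415 bases from COL4A5. The canonical starts of COL4A1 and COL4A2 are 126 bases apart, and the second sequence is the whole of that gap (chr13:110959505-110959630, plus strand). Capitals mark matches to the motifs named above, on either strand.
COL4A5: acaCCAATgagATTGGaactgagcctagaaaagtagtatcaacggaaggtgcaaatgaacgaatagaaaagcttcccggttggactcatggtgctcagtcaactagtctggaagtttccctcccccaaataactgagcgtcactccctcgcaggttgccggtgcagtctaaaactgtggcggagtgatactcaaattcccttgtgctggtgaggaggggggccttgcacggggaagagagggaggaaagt
COL4A1-COL4A2: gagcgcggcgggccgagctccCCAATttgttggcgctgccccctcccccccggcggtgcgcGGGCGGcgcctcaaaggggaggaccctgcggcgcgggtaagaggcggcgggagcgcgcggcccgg

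The region by COL4A5 held 2 CCAAT boxes, 1 on each strand, and the gap between COL4A1 and COL4A2 held 1 CCAAT box and 1 GC box. CCAAT occurred in 34.3% of windows of 250 bases and in 24.1% of windows of 126 bases, and GGGCGG in 50% of the latter. G and C made up 51.2% of the COL4A5 window and 80.2% of the COL4A1 to COL4A2 gap, where the median of all 250-base windows was 63.2%.

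The 2 listed chains of type VI collagen, which forms beaded filaments around cells, were lower in LN95(KO), and only COL6A2 was called. Other type VI chains were not looked up. COL6A2 (chromosome 21, 47518026 to 47552762) had 2109 and 2054 reads in LNCaP95 and 771 and 705 in LN95(KO). It fell from 113 ± 1.5 to 41.0 ± 3.48 CPM, a log2 ratio of -1.46 (SE 0.06, edgeR adjusted p 2.85e-12). COL6A1, the chain it assembles with, had 5232 and 5120 reads against 3365 and 3301 and was lower by less than 2-fold (log2 -0.60, SE 0.05, edgeR adjusted p 1.03e-08). Per length, COL6A1 was the highest collagen in both groups, at 66.9 ± 0.661 and 44.1 ± 1.55 CPM per kb, with COL6A2 next in LNCaP95 (32.8 ± 0.435). COL4A5 took the second place in LN95(KO), at 21.2 ± 1.66 against 11.9 ± 1.01 for COL6A2, beyond the spread of the libraries.

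Fibrillar collagens were low, except COL1A1. COL5A1 (chromosome 9, 137533649 to 137736689), a chain that nucleates fibrils, had 145 and 100 reads in LNCaP95 and 8 and 1 in LN95(KO). The groups were far apart, and the libraries of each differed more than for most genes here. Its log2 fold change was -4.70 (SE 0.40, edgeR adjusted p 7.77e-08), -6.76 when replicate 3 of LN95(KO) was left out and -3.86 when replicate 4 was. COL5A2, its partner chain, had 48 and 52 against 55 and 44 reads (log2 0.02, SE 0.22). COL1A1, the main chain of type I collagen, had 525 and 520 against 606 and 580 reads (log2 0.22, SE 0.08, edgeR adjusted p 0.0227), while COL1A2, which completes the usual type I trimer, had 1 to 5 reads per library. COL3A1 had 10 to 22 reads and COL2A1 had 0 to 10.

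Of the remaining collagens, COL9A3 alone was called. COL9A3, a chain of a fibril-associated collagen of cartilage, had 40 and 46 reads against 99 and 108 and rose by 1.30 on the log2 scale (SE 0.19, edgeR adjusted p 1.23e-05), whereas COL9A2 of the same trimer had 79 and 78 against 65 and 84 (log2 -0.04, SE 0.18). COL7A1, the anchoring fibril that binds laminin under hemidesmosomes, had 236 and 238 against 220 and 208 (log2 -0.11, SE 0.11). COL18A1, the source of endostatin, had 71 and 91 against 83 and 63, with 18.5% of its exon bases shared with SLC19A1 on the opposite strand. COL17A1, the transmembrane collagen of hemidesmosomes, had 1 to 9 reads per library and COL12A1 had 2 reads in all. Thus 13 of the 18 collagens were tested and 6 of the 13 (46.2%, against 18% of all genes tested) were called, 4 higher and 2 lower.

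The make-up of each family was compared per transcript length, as the share of a chain in the summed CPM per kb of its group. LAMA3 made up 42.1% and 42.3% of the 5 laminin alpha chains in LNCaP95 and 88.6% and 89.4% in LN95(KO), and LAMA5 made up 57.6% and 57.3% against 9.92% and 8.76%. With this length, the order of the 2 chains was reversed between the groups, by a margin many times the difference between libraries. The length is that of the long LAMA3 transcript, and whole-gene counts do not tell how many reads came from shorter LAMA3 transcripts. A shorter length would raise the LAMA3 share, so the order in LNCaP95 rests on the length chosen. The summed level of the alpha chains was 9.66 and 9.64 CPM per kb against 43.2 and 38.1. LAMB2 remained the main beta chain, at 94.8% and 94.7% of the 3 listed against 85.9% and 85.1%, with LAMB3 at 1.14% and 1.07% against 8.58% and 7.66%.

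On the receptor side, ITGA6 made up 63.6% and 63.8% of the 3 laminin-binding alpha subunits in LNCaP95 and 88.0% and 87.0% in LN95(KO), and ITGA3 made up 34.2% and 33.6% against 9.23% and 10.6%. Their summed level differed little, at 18.2 and 18.5 CPM per kb against 21.4 and 20.1. Among the 13 listed alpha subunits ITGA6 was the highest in LN95(KO) (18.1 ± 0.952 CPM per kb, against 15.1 ± 0.298 for ITGAV). In LNCaP95 their order depended on the length used, with ITGAV ahead per canonical transcript (14.2 ± 0.355) and ITGA6 ahead per union of exons, at 36.1% of the summed level against 18.4%. COL4A5 remained the main type IV chain, with 90.8% and 89.7% against 85.3% and 85.3%, while COL4A6 went from 1.38% and 1.65% to 7.24% and 7.07%. The summed level of the listed type IV chains was 8.79 and 8.42 CPM per kb against 26.2 and 23.5.

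**Figure D3:**
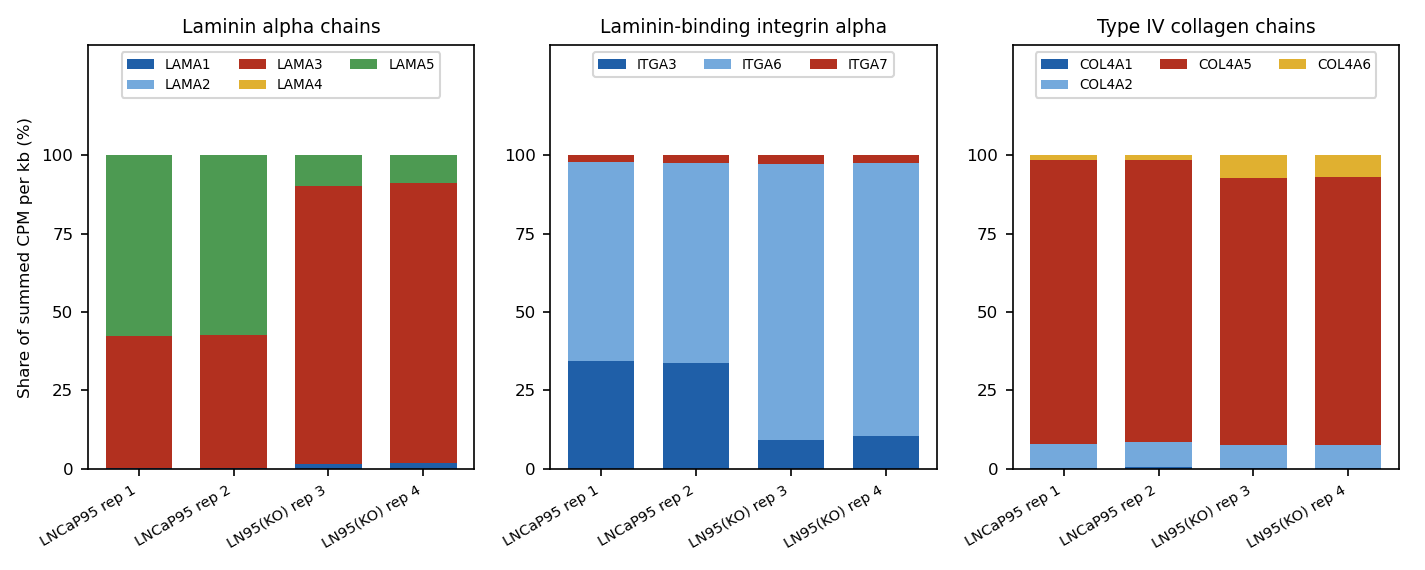
Shares, in percent of the summed CPM per kb, of the laminin alpha chains, of the laminin-binding integrin alpha subunits and of the listed type IV collagen chains, with 1 bar per library. LAMA3 fills 42.1% and 42.3% of the laminin bars in LNCaP95 and 88.6% and 89.4% in LN95(KO), and ITGA3 shrinks from 34.2% and 33.6% to 9.23% and 10.6% of the integrin bars.

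Members that lie within 200 kb of each other did not always share a direction. Besides the type IV pairs there were 4 such pairs. ITGA3 and COL1A1 on chromosome 17 lie 93616 bases apart, with log2 fold changes of -1.60 and 0.22. COL6A1 and COL6A2 on chromosome 21 lie 93061 bases apart and were both lower (-0.60 and -1.46). ITGA1 and ITGA2 on chromosome 5 (-0.01 and -0.93) and COL3A1 and COL5A2 on chromosome 2 (-0.19 and 0.02) are closer still, at 30130 and 19151 bases, and were not called. Differences between genes of a pair were not tested.

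Other genes of cell-matrix adhesion were looked up as lists. The share called in each list stands against 18% of all genes tested. Genes such as SPARC, FREM1, FRAS1 and TIMP3 entered the test through 1 group alone. The shares thus describe the genes tested and not the lists as a whole. Proteins that join integrins to actin and to signalling mostly differed by less than 2-fold. Of 33 adaptors and kinases, 29 were tested, 2 were called higher and 1 lower (10.3% called, median log2 fold change 0.28), and 18 more passed the adjusted p in edgeR at less than 2-fold, 14 of them higher. FERMT2, a kindlin that helps talin to activate integrins, had 835 and 813 reads against 195 and 185 and fell by 2.08 on the log2 scale (SE 0.09, edgeR adjusted p 1.39e-12). TNS4, a short tensin of epithelial cells, had 42 and 43 against 173 and 140 reads and rose by 1.91 on the log2 scale (SE 0.18, edgeR adjusted p 9.19e-08), and TNS3, another tensin, was called at 1.25 with 15 and 9 against 26 and 30 reads. The TNS3 call was lost with DESeq2 (adjusted p 0.0856) and without LNCaP95 replicate 2 (log2 ratio 0.93, edgeR adjusted p 0.0658). ILK, the integrin-linked kinase, had only 2 to 7 reads per library; 78.5% of its exon bases are shared with other annotated genes, and htseq does not count a read that matches more than 1 gene.

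Enzymes that modify collagen went both ways. Of 27, 22 were tested, 3 were called higher and 3 lower (27.3% called, median 0.01). PLOD2, a lysyl hydroxylase that sets the kind of collagen crosslink, had 328 and 295 reads against 1147 and 1129 (log2 fold change 1.90, SE 0.08, edgeR adjusted p 9.48e-13). P3H2, a prolyl 3-hydroxylase active on type IV collagen, had 10 and 9 against 50 and 48 reads (2.38), and LOX, the crosslinking lysyl oxidase, had 35 and 23 against 134 and 147 (2.30). Those called lower were COLGALT2, a collagen galactosyltransferase (-2.47), PCOLCE2, an enhancer of procollagen cleavage (-2.27), and LOXL2, a lysyl oxidase relative (-1.18). LOXL2 did not pass with DESeq2 (adjusted p 0.0809). COLGALT2 was at -3.06 without LN95(KO) replicate 4 and at -2.05 without replicate 3.

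Among other proteins of the basement membrane and adhesive matrix, 16 of 23 were tested, with 3 called higher and 3 lower (37.5%, median -0.29). SPARC, a collagen-binding matrix protein, had 5 and 3 reads against 97 and 121 and rose by 4.76 on the log2 scale (SE 0.32, edgeR adjusted p 8.2e-10). PXDN, the peroxidase that crosslinks type IV collagen, had 1378 and 1463 reads against 2997 and 2834 and rose by 1.07 on the log2 scale (SE 0.06, edgeR adjusted p 5.44e-11). The third, FREM1, a partner of FRAS1, was under 1 CPM with 0 and 1 against 18 and 10 reads. FRAS1, a protein of the epithelial basement membrane, had 239 and 222 reads against 3 and 0. LNCaP95 was thus 150-fold above LN95(KO), with an exact 95% interval of 51.1 to 731 for counting error alone. Its fitted log2 ratio of -7.12 became -6.15 without LN95(KO) replicate 4, and without replicate 3 no read was left in LN95(KO) to give a fold. SMOC2 and NTN1 were also called lower, at -2.02 and -1.12, and NTN1 fell short of 2-fold without LNCaP95 replicate 2 (-0.96).

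Of 11 other matrix receptors 8 were tested and 1 was called (12.5%, median -0.14). It was SDC1, the epithelial heparan sulfate receptor syndecan-1, with 628 and 597 reads against 1694 and 1838, a rise of 1.56 on the log2 scale (SE 0.06, edgeR adjusted p 9.82e-13). For the 7 tetraspanins and hemidesmosome plakins, edgeR and DESeq2 each called 0 (median -0.08). In edgeR, 6 of the 7 passed the adjusted p alone, which 59.8% of all genes did, and 6 had a p below 0.05 before adjustment. Of 16 metalloproteinases and their inhibitors 7 were tested and 2 were called, both lower (28.6%, median -0.39). MMP16, a membrane-bound matrix protease, had 1978 and 2075 reads against 10 and 12 and fell by 7.48 on the log2 scale (SE 0.12, edgeR adjusted p 6.39e-18). TIMP3, an inhibitor bound to the matrix, had 62 and 45 against 6 and 3 reads and fell by 3.50 on that scale (SE 0.39, edgeR adjusted p 5.91e-07). TIMP3 was at -4.09 on the log2 scale without LN95(KO) replicate 3 and at -3.08 without replicate 4.

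**Figure D4:**
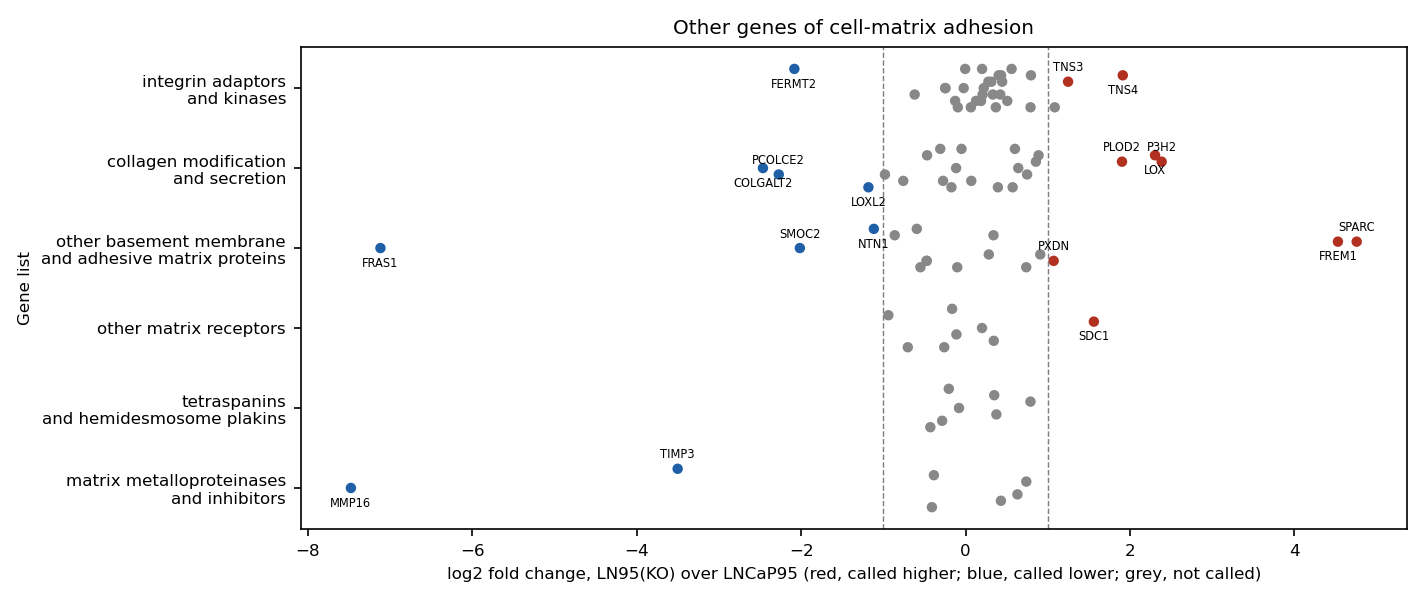
log2 fold changes, LN95(KO) over LNCaP95, of the tested genes of 6 further lists, with 1 point per gene, named where called, and dashed lines at a 2-fold change. Most adaptors and kinases lie between the lines, and MMP16 (-7.48) and SPARC (4.76) lie at the ends.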

How the data were processed

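RNA was sequenced as 2 LNCaP95 and 2 LN95(KO) libraries after oligo(dT) selection on the DNBseq platform. For the deposited counts, which are whole reads without normalization, the authors used hisat2 (2.1.0) on hg19 and htseq (0.11.2) with GENCODE release 29, without strand per the file names. The series table and the single files held the same counts (0 cells differed), and the 5 summary lines of htseq were left out. Replicates differed by more than sampling noise (chi-square per degree of freedom 2.44 and 3.58). Identifiers were matched to symbols for 59899 of 60880 genes. Coordinates, exons and canonical transcripts came from GENCODE release 44 on GRCh37, as did the sequences from that genome.

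Counts were tested with edgeR 4.0.16 (R 4.3.3; filterByExpr with minimum count 10 and minimum total 15, TMM factors, robust quasi-likelihood, no covariate), with Benjamini-Hochberg adjustment over 15626 genes. The standard error is the absolute log2 fold change divided by the square root of F. The study's thresholds were used, with DESeq2 (1.42.0), other scalings, filters and left-out libraries as alternatives; the script was tested on simulated data. The smallest two-sided permutation p for 2 against 2 is 0.333, so none was run. Intervals and the limit of 3 reads cover counting error only.

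The text names all 49 members, and from each further list up to 3 called genes in each direction with the largest fold at 1 CPM or more in a group; other names were chosen after their values were seen. The members and lists were chosen with earlier results of these data known.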

Additional observations from a re-analysis of the deposited data

Results flagged for a closer look

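The share of entries that did not align, which no comparison above uses, was higher in LN95(KO), at 8.05% and 7.71% (7.707% at the lowest), than in LNCaP95, at 3.85% and 3.96%; its part in the results was not tested.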

How the results depend on the processing

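No paired analysis was possible because LNCaP95 replicates are numbered 1 and 2 and those of LN95(KO) 3 and 4. The 13 calls among the 49 members numbered 13 (9 higher, 4 lower) under DESeq2, RLE and upper quartile factors, library totals, both other filters and each of the 4 fits without a library. A test against a 2-fold change (glmTreat) called 11, without ITGA10 and COL9A3. Dropping the fold criterion, a looser rule by construction, gave 24 members (14 higher, 10 lower), 10 integrins and 6 laminins, and 9349 of all genes in place of 2811, of which glmTreat called 1687. UGT2B17 ranged from -7.09 to -6.98 without a library. Expressed members numbered 28 when 1 CPM was asked of all 4 libraries and 35 when asked of any.

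Uncalled members near 0 changed sign. With library totals ITGA1 was at 0.0417 and COL9A2 at 0.0118, and with upper quartile factors COL5A2 was at -0.0195. Without 1 library in turn, ITGA1 ranged from -0.19 to 0.18, LAMC3 from -0.55 to 0.0118, COL3A1 from -0.79 to 0.25, COL5A2 from -0.17 to 0.19, COL9A2 from -0.22 to 0.11 and COL18A1 from -0.35 to 0.0898. With the union of exons as length, chosen after seeing the data, the LAMA3 share of alpha chains was 40.2% in LNCaP95 and 88.5% in LN95(KO), and the ITGA6 share of laminin-binding alpha subunits was 75.5% and 92.6%, and that of ITGA3 was 23% and 6.01%. Among the further lists, glmTreat did not call TNS3, LOXL2, PXDN and NTN1. Without a filter, 2 other matrix receptors and 4 metalloproteinases and inhibitors were called. The cause of these shifts was not tested.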
